A study of Mus musculus with 2 samples.

Results

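Across chromosomes 1 to 19 of the F9 mouse genome, 398 positions carried a methylRAD count of at least 150 in at least 1 of the 2 libraries of the series. They were 0.0297% of the 1338881 autosomal positions listed in either library. Positions at most 10 kb from the next were joined, which gave 281 loci. The ribosomal repeat on chromosome 17, with 28 such positions between 39843013 and 39848775, was left out. The positions were chosen by their counts in these same libraries, so their height and the ratio between the libraries are a description and carry no test. Of the members, 18 had a higher count of exactly 150, such as position 61575558 of chromosome 4 with 150 undifferentiated and 119 differentiated counts. Just outside, 9 positions reached 149, such as position 8:117001697 with 77 and 149.

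MethylRAD sequences the short fragments that the enzyme FspEI releases around methylated cytosines, so a site's count depends on how methylated it is and on how many copies of its sequence the cells hold. The 2 libraries came from F9, an established mouse embryonal carcinoma line whose cells differentiate under retinoic acid. One library was made from undifferentiated cells kept on gelatin-coated plates. The other was made from cells given 1 µM retinoic acid in low-attachment dishes and taken on day 4. Neither state had a replicate, so every difference below is between 2 libraries and has no replicate check. The descriptions of both libraries carry the word untreated, and no allele or transgene is named. Listed counts summed to 20550450 for undifferentiated and 21291239 for differentiated cells. No listed position had fewer than 5 counts. Levels below are counts per 1000000 counts at CCGG, the motif that holds a CpG, and these totals were 16687588 and 15705436. The other motifs, CCAGG and CCTGG, place the methylated cytosine outside CpG. Intervals are 95% intervals for counting error alone, and amplified reads are not independent molecules. Positions at most 16 bases apart can be covered by the same read. Where summed counts include such positions, reads can count more than once and the interval is too narrow.

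Satellite DNA, ribosomal genes and recently duplicated gene families exist in more copies in a cell than in a genome assembly. Reads from the many copies then align to the few that the assembly holds, and their counts pile up there. Methylation of such repeats, the satellites around centromeres above all, is part of how mammalian cells keep them silent. A count at such a position therefore sums over copies and cannot be read as the methylation of any one of them.

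Whether the members are of this kind was not tested, since copies were not counted. A position was set against its surroundings by the median count of the CCGG sites within 500 kb that were not members. In at least 1 library, 15 members stood at least 100 times above their surroundings, 72 at least 20 times and 187 at least 10 times. The other 211 were less than 10 times above. Of those 211, 149 lay in a segment of chromosome 12 where ordinary sites were also high in most windows, described below. The lowest value was 5.17 times inside that segment and 6.25 times elsewhere, and the threshold of 150 itself sets how low it can be. The members are called high-count positions here. No sequence of the repeats was at hand, so which repeat family a locus belongs to was not checked.

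Sequence was at hand for the promoter windows of RefSeq genes on build GRCm38.p6, each from 250 bases before to 50 after a start site (300 bases in all). The submitters' processing notes name GRCm38 for these libraries. Only 2 members fell inside such windows with the 32 bases around the site inside the window. Both are shown on the plus strand with the CCGG at the listed position in capitals, because they let the coordinates be read against the genome. CCGG reads the same on both strands, and 53.5% of these windows hold at least 1.
Gm29922 promoter, chr4:105845879-105845958: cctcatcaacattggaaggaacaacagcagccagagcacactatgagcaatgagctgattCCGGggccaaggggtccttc
Gm51959 promoter, chr12:110986912-110987035: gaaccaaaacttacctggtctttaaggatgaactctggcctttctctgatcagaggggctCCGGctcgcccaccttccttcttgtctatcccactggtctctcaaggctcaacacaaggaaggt
The site upstream of Gm29922, position 105845939 of chromosome 4, had 66 undifferentiated and 167 differentiated counts. The site at Gm51959, position 110986972 of chromosome 12, had 66 and 154. Its sequence occurred in 1 of the promoter windows, its own, as did that of the Gm29922 site, when those 32 bases were searched on both strands. The promoter windows also served to check the tables. At 9129 of 9129 listed positions with a full-match alignment the reference held the named motif exactly at the listed base. At soft-clipped positions, where the end of a read did not align, it did so at 0 of 104, and at 28 of 104 the motif lay within 40 bases inside the window.

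The highest counts in the series lay on chromosome 2 between 98662465 and 98668861, a stretch known as a remnant of major satellite, the repeat of mouse pericentromeric chromatin. It held 17 listed positions, 6 of them full-match and 11 soft-clipped, of which 4 were members. RefSeq placed no gene there, and the nearest, the lncRNA Gm33780, began 33738 bases away. Position 98666502 had 418590 undifferentiated and 130656 differentiated counts. Position 98666261, 241 bases before it, had 224244 and 57594 counts. Position 98662793, a further 3468 bases away, had 76328 and 25795 counts. These 3 full-match CCGG positions held 99.9% of the stretch's undifferentiated and 99.4% of its differentiated counts.

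All 3 were lower in the differentiated library, by unequal amounts. The log2 ratio, taken throughout as differentiated over undifferentiated level, was -1.59 at position 98666502 (interval -1.60 to -1.58). It was -1.87 at 98666261 (-1.89 to -1.86) and -1.48 at 98662793 (-1.50 to -1.46). The intervals do not overlap, so the 3 positions of this stretch differed in ratio by more than counting error.

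**Figure D1:**
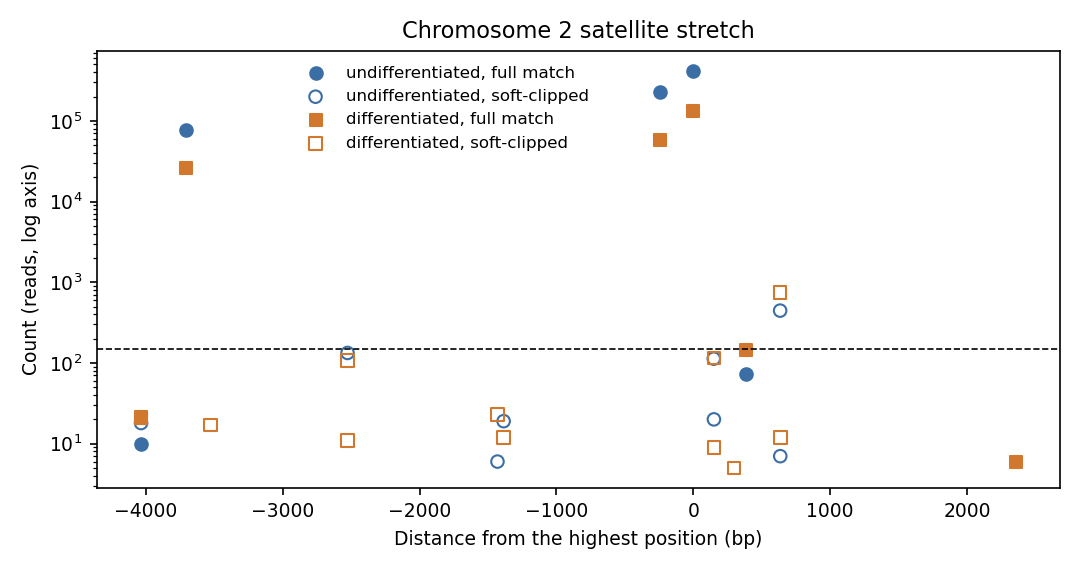
Counts (log axis) at the 17 listed positions of the chromosome 2 stretch against distance in bp from the highest position, 98666502. Circles are the undifferentiated and squares the differentiated library, filled for full-match and open for soft-clipped positions, and the dashed line marks 150 counts; the 4 positions not listed for undifferentiated cells have no circle. The 3 filled pairs at the top, from 25795 to 418590 counts, are lower in the differentiated library, and all other positions lie at 750 counts or below.

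The remaining positions of the stretch did not follow them as a group. The fourth member, the soft-clipped CCGG position 98667137, had 445 undifferentiated and 750 differentiated counts, a log2 ratio of 0.84 (0.67 to 1.01). The full-match CCTGG position 98666886 had 74 and 145 counts, a log2 ratio of 1.06 (0.64 to 1.48). Soft-clipped position 98663975 had 133 and 108 counts and 98666652 had 113 and 115, with intervals that include 0. Without the 3 highest positions the stretch summed to 845 and 1255 counts, a log2 ratio of 0.66 (0.53 to 0.79). With all 17 positions it was -1.65 (-1.66 to -1.65). At 4 places in the stretch a pair of positions lay 1 base apart, each with a soft-clipped position in it. On all autosomes 100 of 100 pairs of listed positions 1 base apart held a soft-clipped position.

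The 3 satellite positions outweighed all others in the sums. They held 88.8% of the members' undifferentiated and 62.8% of their differentiated counts. The members together took 3.94% of all undifferentiated counts (95% Wilson interval 3.93% to 3.95%) and 1.60% of all differentiated counts (1.60% to 1.61%). Outside the stretch, the other 394 members took 0.438% (0.436% to 0.441%) and 0.592% (0.589% to 0.595%). The log2 ratio of the summed counts was -1.16 with the stretch and 0.57 without it.

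By position, most members were higher in the differentiated library. The median log2 ratio was 0.79, with quartiles of 0.45 and 1.16 and a range from -3.37 to 2.40. At 144 members the level was 2-fold or more higher there and at 20 it was 2-fold or more lower, or 36.2% and 5.03% of them. Among all listed autosomal positions these shares were 20.5% and 15.2%. Among those whose counts summed to 40 or more they were 16.9% and 12.3%, and with a sum of 160 or more 14.6% and 1.34%. Non-members with a sum of 40 or more had a median log2 ratio of 0.20. Nothing is read from this contrast, since a count of 150 was reached by 366 members after differentiation and by 117 before it, with 85 in both. Among the 85, the median was 0.44, with 19 higher and 7 lower by 2-fold or more. Scaling by the median ratio of CCGG sites moved each log2 ratio by -0.16 and the median over all positions summing to 40 or more to 0.05. At this scaling 12.8% of those positions were higher and 15.0% lower by 2-fold or more, the reverse order of the 16.9% and 12.3% above, and with the RPM divisors 11.2% and 16.4%. It left 100 members higher and 22 lower, so the higher share of these calls went from 87.8% to 82.0%, and to 78.7% with the divisors behind the authors' RPM values.

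**Figure D2:**
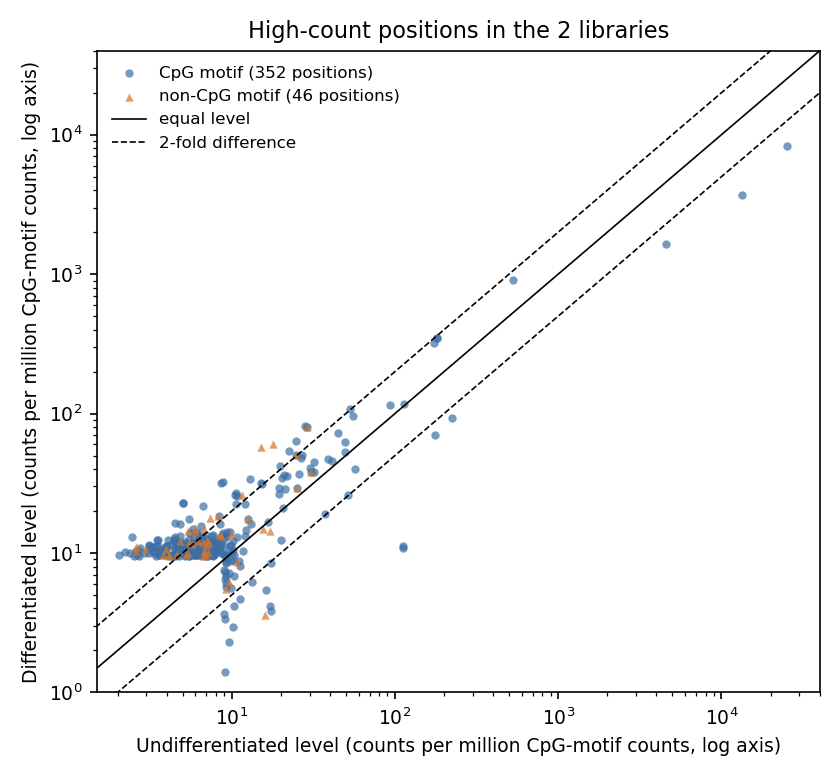
Level of each of the 398 high-count positions in the undifferentiated (x) and the differentiated library (y), in counts per 1000000 CpG-motif counts on log axes. The solid line marks equal levels and the dashed lines a 2-fold difference. The bent lower edge of the cloud is the threshold of 150 counts, and the 3 satellite positions at the upper right lie below the lower dashed line.

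Only 19 members reached 1000 counts, in 11 loci. Of these, 7 were lower and 4 higher in the differentiated library by 2-fold or more. Of the 46 members with 300 counts or more but fewer than 1000, 20 were higher and 0 lower by that much. Of all autosomal positions summing to 160 or more, 14.6% were higher and 1.34% lower, and the rule used these counts. The 7 lower ones were the 3 satellite positions, 2 in Dpp10 and 1 each on chromosomes 4 and 15, described below.

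Isolated single positions made up much of this top group. Position 106177360 of chromosome 4, outside any RefSeq gene, had 8816 undifferentiated and 14163 differentiated counts, a log2 ratio of 0.77 (0.73 to 0.81). Ordinary CCGG sites around it had median counts of 22 and 20, so it stood 401 and 708 times above them. Position 22766200 of chromosome 17 had 2909 and 5004 counts, a log2 ratio of 0.87 (0.80 to 0.94), over surroundings of 12 and 9. Position 114523294 of chromosome 6 had 1552 and 1818 counts, a log2 ratio of 0.32 (0.22 to 0.41). Their nearest listed CCGG sites were 357, 1197 and 16531 bases away, so no listed CCGG site shared their reads.

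Others of these lone positions were lower in the differentiated library. Position 28176969 of chromosome 4, in the lncRNA Gm52725, had 3714 undifferentiated and 1456 differentiated counts, a log2 ratio of -1.26 (-1.35 to -1.18). Position 75085811 of chromosome 15, in no RefSeq gene, had 2934 and 1095 counts, a log2 ratio of -1.33 (-1.44 to -1.23). The largest difference at any locus was in Dpp10, which encodes an auxiliary subunit of potassium channels. Its 2 CCGG sites at positions 123857389 and 123857399 of chromosome 1 had 1879 and 1882 undifferentiated counts against 171 and 177 differentiated counts. The log2 ratio of the locus was -3.35. At its single sites it was -3.37 (-3.60 to -3.14) and -3.32 (-3.55 to -3.10). The surrounding CCGG sites had median counts of 13 and 9, so the second site stood 145 times above them among undifferentiated counts and 19.7 times among differentiated counts.

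The pair of Dpp10 sites shows how 1 fragment can appear as 2 positions. They lie 10 bases apart and can be covered by the same read. Neighbouring members at most 16 bases apart occurred 34 times, in 30 loci, and the 398 members formed 364 such runs. Within these pairs the log2 ratios differed by a median of 0.01. Pairs in the same locus but 17 to 1000 bases apart, 43 in all, differed by a median of 0.38, and the 402 pairs over 1000 bases apart by 0.70. The Sfi1 loci, described below, gave 331 of these 402. Of the 281 loci, 218 held 1 member, 47 held 2 and 16 held 3 or more. In 20 of the 47 the 2 members were at most 16 bases apart.

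Chromosome 10 held a similar overlap at E030030I06Rik, annotated as protein-coding. Positions 22142773 and 22142777 had 3021 and 3031 undifferentiated counts and 5467 and 5490 differentiated counts. They lie 4 bases apart, the second is soft-clipped, and their log2 ratios were both 0.94. A further member 179 bases before them, at 22142594, had 280 and 263 counts and a log2 ratio of -0.003 (-0.25 to 0.25). The overlapping pair and the flat position thus lay within 184 bases.

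The locus with most members covered Pisd-ps1 and Sfi1 on chromosome 11. Pisd-ps1 is a pseudogene of phosphatidylserine decarboxylase, and Sfi1 encodes a centrin-binding protein of the centrosome. From 3126027 to 3165498 it held 26 members among 142 listed positions, with 10373 undifferentiated and 16605 differentiated counts and a log2 ratio of 0.77 (0.73 to 0.80). A further locus in Sfi1, from 3182459 to 3199923, held 8 members among 44 listed positions, including the region of the pseudogene Fau-ps2. Its counts were 2515 and 3383, a log2 ratio of 0.52 (0.44 to 0.59). Ordinary CCGG sites within 500 kb had median counts of 16 to 17 and 12 to 13. Where a gene has near-identical copies, the authors' alignment may have moved reads between them, so counts here are uncertain for any 1 copy.

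Members of the Sfi1 loci ranged widely in ratio around these sums. The highest ratio of both loci was 1.87, at the CCTGG position 3132205 in Sfi1 with 49 undifferentiated and 169 differentiated counts. The member with the most differentiated counts, position 3127395 in Pisd-ps1, had 882 undifferentiated and 1683 differentiated counts, a log2 ratio of 1.02. Position 3165002 in Sfi1 had 929 and 1516, a log2 ratio of 0.79. In contrast, position 3153184 had 946 and 633 counts, a log2 ratio of -0.49 (-0.64 to -0.35), and position 3146978 had 333 and 196, a log2 ratio of -0.68 (-0.94 to -0.42). The overlapping positions 3150037 and 3150044, also within the pseudogene Gm11400, had 483 and 484 undifferentiated and 1260 and 1265 differentiated counts. Of the 34 members of both loci, 15 were higher by 2-fold or more and 0 lower, beside 16.9% and 12.3% of all positions summing to 40 or more and 14.6% and 1.34% of those summing to 160 or more. Nothing is read from that count, because the rule used these counts.

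**Figure D3:**
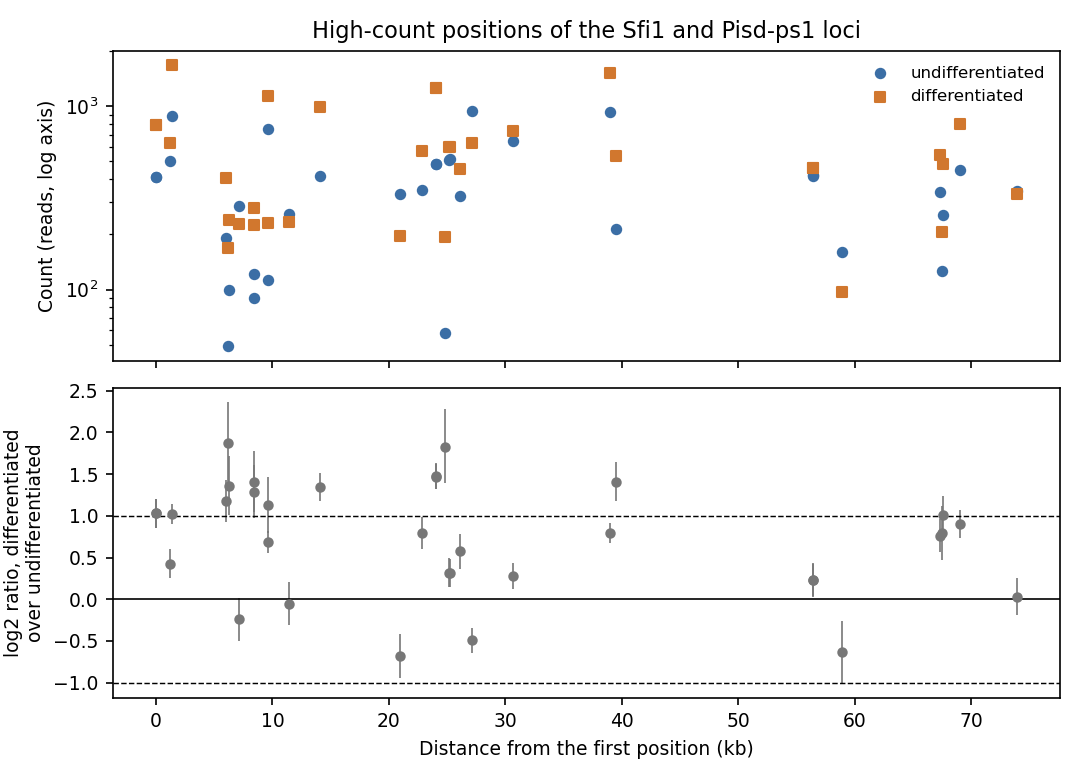
Upper panel: counts (log axis) of the 34 high-count positions of the Pisd-ps1 and Sfi1 loci in the undifferentiated (circles) and differentiated library (squares), against distance in kb from the first position. Lower panel: log2 ratio of differentiated to undifferentiated level with 95% counting intervals, where dashed lines mark a 2-fold difference. Ratios run from -0.68 to 1.87, and high and low ratios lie close to each other.

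On chromosome 9, 6 members lay between 123928179 and 123936274, the first of them in the lncRNA Gm51701. Their sums, 2771 undifferentiated and 2608 differentiated counts, gave a log2 ratio of 0.00 (-0.08 to 0.08). Single members went in opposite directions. Position 123933173 had 253 and 495 counts, a log2 ratio of 1.06 (0.83 to 1.28). The CCTGG position 123931143 and the CCGG position 123931155, 12 bases apart, had 265 and 285 undifferentiated against 56 and 65 differentiated counts. Their log2 ratios were -2.15 and -2.04. Soft-clipped position 123936274 had 618 and 299 counts, a log2 ratio of -0.96 (-1.16 to -0.76).

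Chromosome 1 held 20 members in 9 loci between 85 and 86 Mb, a region that includes Sp110 and Sp140, genes of related nuclear body proteins. The locus of 5 members from 85147593 to 85147861, outside any RefSeq gene, had 546 undifferentiated and 1645 differentiated counts, a log2 ratio of 1.68 (1.54 to 1.82). Its members ran from 1.28 to 1.89, all in 1 direction. Position 85319568 in the transcribed pseudogene Gm2619 had 171 and 46 counts, a log2 ratio of -1.81 (-2.31 to -1.33). The locus of 3 members from 85583019 to 85591908, in Sp110 and at its end also Sp140, had 860 and 1034 counts and a log2 ratio of 0.35. A further member in Sp140, position 85620941, had 68 and 194 counts and a log2 ratio of 1.60. Of the 20 members, 7 were higher and 2 lower by 2-fold or more, beside 14.6% and 1.34% of all positions summing to 160 or more and 16.9% and 12.3% of those summing to 40 or more. The rule used these counts, and nothing is read from them.

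The 4 loci with the highest ratio all had low undifferentiated counts. Position 115615732 of chromosome 12, in the immunoglobulin heavy chain locus Igh, had 41 undifferentiated and 203 differentiated counts, a log2 ratio of 2.40 (1.91 to 2.92). Position 145455765 of chromosome 4, in the pseudogene Gm13223, had 34 and 151, a log2 ratio of 2.24 (1.69 to 2.82). The overlapping positions 5860660 and 5860667 of chromosome 3 had 84 undifferentiated counts each and 356 and 361 differentiated counts. Position 106465938 of chromosome 12, in the lncRNA Gm51969, had 40 and 158. None of these positions passed 84 counts in the undifferentiated library, so the differentiated count chose all of them.

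At the low end, 2 loci besides Dpp10 and Gm2619 stood out. Position 111808420 of chromosome 12, in Xrcc3, a gene of homologous recombination repair, had 151 undifferentiated and 22 differentiated counts, a log2 ratio of -2.69 (-3.41 to -2.04). In the differentiated library this site was 0.863 times the median of its surroundings. Position 51593862 of chromosome 14, in Gm5622, had 161 and 36 counts, a log2 ratio of -2.07 (-2.64 to -1.54). It is the undifferentiated count that put both above the threshold.

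Non-CpG motifs made up 11.6% of the members, 14 CCAGG and 32 CCTGG positions, against 41.7% of all listed autosomal positions. Of the 361743 autosomal positions summing to 40 or more, 51940 were non-CpG. The 41.7% is not matched for counts, so no depletion is read from it. Of the 46 non-CpG members, 29 lay at most 16 bases from a listed CCGG site, compared with 13.3% of all listed non-CpG positions. That share was not matched for counts either. For 28 of the 29 the CCGG neighbour was itself a member, and for 27 the summed counts of the pair were within 1.5-fold. Their log2 ratios differed by a median of 0.02. Such a pair is seen at positions 67708532 (CCAGG) and 67708541 (CCGG) of chromosome 5, both with 95 undifferentiated and 182 differentiated counts. Reads of such pairs cannot be assigned to either motif.

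The other 17 non-CpG members had no listed CCGG site within 16 bases. The highest was the CCAGG position 58225254 of chromosome 10, in LOC100504180, with 298 undifferentiated and 951 differentiated counts and a log2 ratio of 1.76 (1.57 to 1.95). In the same gene, the CCGG position 58224414 had 326 and 418 counts and a log2 ratio of 0.45 (0.23 to 0.66). The CCTGG position 181917469 of chromosome 2, in the lncRNA Gm40034, had 252 and 898 counts, a log2 ratio of 1.92 (1.72 to 2.13). Its CCGG neighbour 933 bases away, position 181916536, had 1885 and 1831 counts and a log2 ratio of 0.05 (-0.05 to 0.14). In both genes the non-CpG position was thus further towards the differentiated library than the CpG position, beyond counting error. Both were named for high non-CpG counts, so no motif trend is read from them. Of the 17, positions 3133122, 3137479 and 3184884 in Sfi1 and 3009191 of chromosome 18 were below 0 in log2 ratio, the rest above. At 3184884 the log2 ratio was -0.63 (-1.01 to -0.26), against 0.24 at the CCGG member 2416 bases away. Of all 46 non-CpG members, 22 were higher and 1 lower by 2-fold or more, where 25.4% and 6.15% of non-CpG positions summing to 40 or more were. Of the 352 CCGG members, 122 were higher and 19 lower, where 15.5% and 13.3% of CCGG positions summing to 40 or more were. Of positions of any motif summing to 160 or more, 14.6% were higher and 1.34% lower. The rule used these counts, and 29 of the 46 non-CpG members lay within 16 bases of a CCGG site. Nothing is therefore read from the contrast between the motifs.

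The alignment type was the same in both libraries at all 398 members. It was full-match at 384 and soft-clipped at 14, which is 3.52% of members and compares with 1.62% of listed autosomal positions. The 14 lay in 12 loci, among them the chromosome 2 stretch, Sfi1, E030030I06Rik and Eef2, the gene of an elongation factor of translation. Position 81178151 in Eef2, on chromosome 10, had 330 and 661 counts. The highest soft-clipped member that was the only one of its locus, position 35305464 of chromosome 9 in Gm33838, had 471 and 1284 counts, a log2 ratio of 1.53. Since no soft-clipped position in promoter windows had its motif at the listed base, the base at which these 14 are listed is uncertain.

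**Figure D4:**
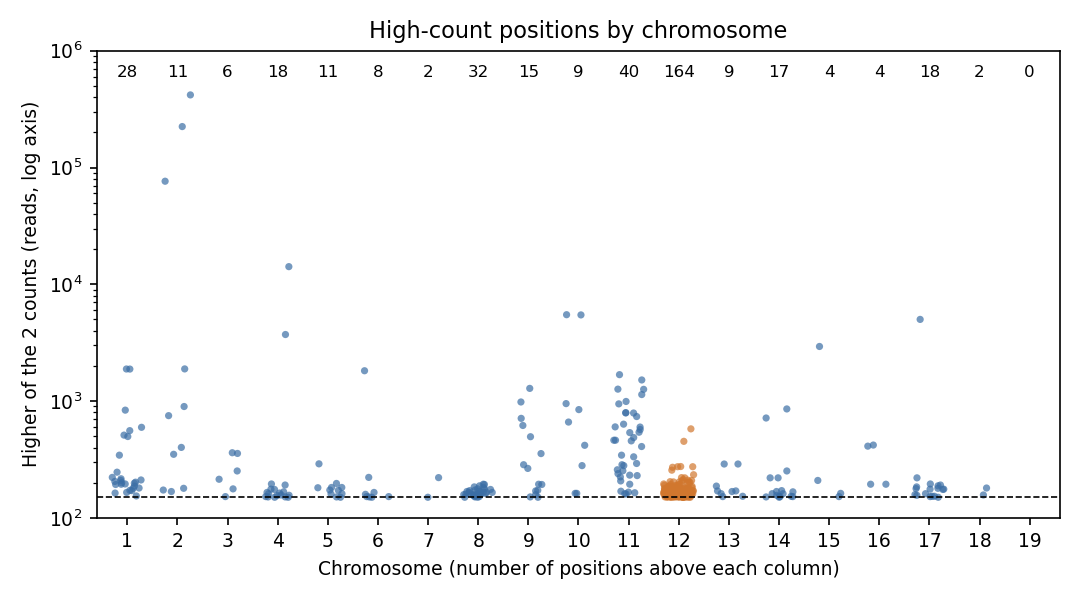
The higher of the 2 counts (log axis) of each of the 398 high-count positions by chromosome, with the number of positions above each column and a dashed line at 150 counts. Chromosome 12 (orange) has 164 positions and none above 578 counts, while the positions over 1000 counts lie on other chromosomes.

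Chromosome 12 held 164 of the 398 members, and 152 of them lay between 86000001 and 114000000. This segment was bounded after its values were seen, as the first and last 1 Mb window of the chromosome with a raised typical count. A raised window was one whose non-member CCGG sites had a median at least 1.5 times that of the median window in both libraries, 15.5 undifferentiated and 13 differentiated counts. Of 2380 windows, 43 met this, 18 of them on chromosome 12 and 13 on chromosome 8. They held 42.2% of the members within windows, 164 positions, but 4.46% of the listed positions. Without chromosome 12 they held 14 members.

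Typical counts were raised in both libraries in 18 of the segment's 28 windows. Window medians ran from 15.5 to 32 undifferentiated and from 12 to 29 differentiated counts, so the lowest windows were near the rest of the chromosome. The median over the 28 windows was 27.5 and 24 counts, and the other 86 windows of the chromosome 15 and 12.5. The segment's members were 0.511% of its listed positions, against 0.0188% elsewhere. Their counts were modest, with a median of 162 for the higher of the 2 counts and a highest of 578, at position 113595109 in Igh (433 and 578). Relative to their surroundings they stood 6.37 times higher at the median, against 13.7 times for the 246 members elsewhere. Only 3 of the 152 were at least 10 times above their surroundings, compared with 184 of the 246. How many copies of this segment the F9 cells carry was not measured, and its part in the result was not tested.

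**Figure D5:**
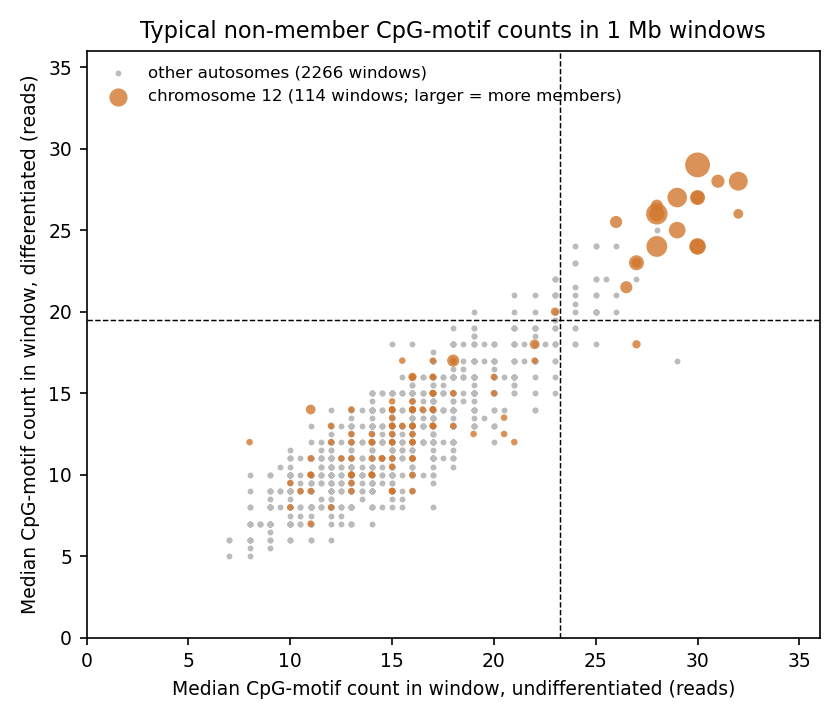
Median count of non-member CpG-motif sites in 1 Mb windows of the autosomes, undifferentiated (x) against differentiated library (y). Orange points are the windows of chromosome 12, larger with more high-count positions, and dashed lines mark 1.5 times the median window. The orange windows beyond both lines, up to 32 and 29 counts, hold 150 of the chromosome's 164 members.

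The locus of the segment with most members was in Dync1h1, which encodes the heavy chain of cytoplasmic dynein, with 6 members among 64 listed positions from 110624718 to 110640711. Its counts were 626 and 1005, a log2 ratio of 0.77 (0.63 to 0.92), and its members ran from 0.41 to 1.37. Surrounding CCGG sites had median counts of 29 and 26. The highest member, position 110624718, had 127 and 190 counts, 4.38 and 7.60 times its surroundings. Of the segment's members, 69.1% lay within a RefSeq gene, compared with 61.4% of members elsewhere and 63.6% of all listed positions.

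Median library ratios inside and outside the segment lay close together. The median log2 ratio was 0.77 for its 152 members, with 50 higher and 2 lower by 2-fold or more, and 0.79 for the 246 elsewhere, with 94 and 18. Over all positions the shares higher and lower were 14.6% and 1.34% at a sum of 160 or more and 16.9% and 12.3% at 40 or more, and the rule used this contrast. Non-member CCGG sites whose counts summed to 40 or more had medians of 0.13 inside and 0.16 outside.

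Chromosome 8 held a thinner scatter of the same height. Its 32 members lay in 29 loci and had 42 to 131 undifferentiated counts, with a median of 90.5, and 150 to 194 differentiated counts, with a median of 165. Ordinary CCGG sites around them had median counts from 12 to 27 and from 10 to 24. All 32 were above 0 in log2 ratio, from 0.52 to 1.92, and 10 were higher by 2-fold or more, beside 14.6% of all positions summing to 160 or more and 16.9% of those summing to 40 or more. All of them passed the threshold through the differentiated library, which fixes that direction. In Ank1, the gene of an ankyrin of the red cell membrane skeleton, position 23132393 had 42 and 150 counts. The overlapping positions 23135685 and 23135691 of Ank1 had 121 undifferentiated counts each and 182 and 184 differentiated counts.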

How the data were processed

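Genomic DNA of undifferentiated and differentiated F9 cells was digested with FspEI and short fragments were sequenced, per the labels' protocols. The deposited tables give whole-number counts of reads per site. No listed count is below 5, so an unlisted site was given 4. The authors' RPM column sums to far more than 1000000 in each library, so it was taken as a score and used for 1 alternative scaling only. The submitters' processing notes name Bowtie2 2.3.3, FastQC 0.11.3 and GRCm38, with no role stated, and filters are not given in the sources used here. Levels were divided by each library's CCGG total. Members were positions with a count of at least 150, linked within 10 kb. Ratio intervals are exact binomial and shares have Wilson intervals. Genes and promoter sequences came from RefSeq on GRCm38.p6. Calculations used Python 3.11.15, numpy 2.4.6, pandas 2.3.3 and scipy 1.17.1, and were tested on simulated data.

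The members and lists were chosen with earlier results of these data known. Named loci were the chromosome 2 stretch, the 12 with the highest summed count, the 5 with most members, the 4 highest and 4 lowest in ratio, and the 3 with the highest non-CpG counts. Other named positions, the windows and the chromosome 12 segment were chosen after seeing the data. Copies of each site in the genome were not counted, because no genome was used here. With 1 library per group no comparison was tested.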

Additional observations from a re-analysis of the deposited data

Results flagged for a closer look

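Chromosomes X and Y were outside the rule, and counts of at least 150 were listed there too. Chromosome X had 3 such positions, the highest with 1096 counts in the differentiated and 911 in the undifferentiated library, at position 75673593. Chromosome Y had 4, the highest with 217 and 194 counts, at position 90741144. No control library gives a background for them.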

How the results depend on the processing

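The cause of each move below was not tested unless the setting itself removes positions. The number of positions and loci, 398 and 281, followed the threshold: 4191 and 2616 at 100 counts, 116 and 64 at 200, 65 and 29 at 300, 85 and 45 with 150 in both tables, and 117 and 70 with 150 in the undifferentiated table. The log2 ratio of the summed counts, -1.16, reversed to 0.57 without the chromosome 2 stretch and to 0.87 with CCAGG and CCTGG members. It was -1.20 with CCGG members, -1.06 with 1 member per locus and -1.24 without the chromosome 12 segment. With all listed counts, CCGG totals without the members, median-ratio scaling and the RPM divisors it was -1.30, -1.20, -1.32 and -1.39. The stretch, -1.65, was -1.79, -1.69, -1.81 and -1.88 under these scalings, -1.74 without its highest position and reversed to 0.66 without its 3 highest. The median of members and of loci, 0.79 for both, was for each of them 0.66 with all listed counts, 0.64 by the median ratio and 0.57 by the RPM divisors.

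The 144 members at least 2-fold higher were 85 under the RPM divisors, 255 at 1.5-fold, 9 at 4-fold, 94 without the chromosome 12 segment, and 19 with 150 in both tables or in the undifferentiated table. At 4-fold the order of members turned with the scaling. With CCGG totals 9 were higher and 7 lower, and 7 and 7 with CCGG totals without the members. They were 5 and 8 with all listed counts or the median ratio, and 2 and 9 with the RPM divisors. Of the 361743 autosomal positions summing to 40 or more, 2.43% were higher and 3.18% lower at 4-fold with CCGG totals. The 9 higher of 398 members lie near that 2.43%, so the members' excess of higher positions at 2-fold was not seen at 4-fold. The 20 members at least 2-fold lower were 7 at 4-fold, 7 with 150 in both tables and 7 with 150 in the differentiated table. Members' shares of 3.94% and 1.60% were 4.81% and 2.09% of CCGG counts, and 0.438% and 0.592% without the stretch. Of 91 alternatives, 46 were labelled the same, 42 moved and 3 reversed. The limit was 1.5 times for counts of members or loci and an interval otherwise. Medians and the full-match percentage are taken over members or loci, so their interval is not counting error alone. Members in raised windows numbered 164, and 14 without chromosome 12. Alternatives without the chromosome 12 segment or soft-clipped members, with 1 position per run, and on windows were chosen after seeing the data. Copies of a site in the genome and settings that leave out a library were not run, since no genome was used and each group has 1 library.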

Other observations

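Further groups of high-count positions, picked with their values known, follow. Of the 11 members on chromosome 5, the 3 lone CCGG positions in the 1 Mb from 15000001 were lower by 2-fold or more in the differentiated library, beside 12.3% of all positions summing to 40 or more and 1.34% of those summing to 160 or more. Position 15006556 had 173 and 65 counts, position 15061514 had 150 and 57, and position 15690921 in Speer4cos, of a family of testis-expressed genes, had 290 and 133. Their log2 ratios were -1.32, -1.31 and -1.04. The other 8 members of the chromosome ran from -0.09 to 1.49, and 6 of them were higher by 2-fold or more. Of all positions, 16.9% were higher at a sum of 40 or more and 14.6% at 160 or more. The 3 lower positions reached 150 only in the undifferentiated library, and the 6 higher ones only in the differentiated library. The rule thus largely set both directions, and nothing is read from them.

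Chromosome 14 held 11 lone members between 98753984 and 99748603, of which 2 lay in Pibf1, a gene of a centrosomal protein. Their counts ran from 60 to 168 in the undifferentiated and from 136 to 220 in the differentiated library. Ordinary CCGG sites around them had median counts from 25 to 34 undifferentiated but from 14 to 22 differentiated. Around the members of the chromosome 12 segment the medians were 29 and 26. The members themselves on chromosome 14 ran from a log2 ratio of -0.08 to 1.42.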
